A study of Mus musculus with 44 samples.

Results

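The 9 genes Bdnf, Ntf3, Gdnf, Ntrk2, Ntrk3, Ngfr, Gfra1, Chl1 and Islr2, of neurotrophic signalling and neurite adhesion, were followed in fibroblasts sorted from mouse mammary tissue. They are 9 of the 55486 genes of the count table and were chosen from these same measurements, on values in control, WB1P and WB1P-Myc fibroblasts with and without CD26. Differences between those groups are therefore given for the 9 genes as levels and fold changes, with no p-value, and the calls of the fit over all genes are counted for them only as a description beside the share of all genes called. Tests are given for the En1 lineage, which did not enter the choice, and for 63 related genes listed by family.

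Recipients were female En1-Cre;mTmG mice, in which cells of the En1 lineage carry GFP. They came from a brief backcross of En1-Cre mice to mTmG mice of FVB/n background. The donor tumor models were on FVB/n. Their fat pads, not cleared of their own tissue, received donor mammary tissue. Control tissue came from donors without WapCre. WB1P tissue was WapCre;Brca1 F/F;Trp53 F/F, and WB1P-Myc tissue also carried Col1a1 invCAG-Myc-IRES-Luc. Wap drives Cre in donor mammary epithelium, so that the tumor genes were altered in donor epithelial cells and not in recipient fibroblasts. The paper also reports donor-derived cells without epithelial markers in tumors of its transplants. Whether any such cells were in this sort was not tested. Tumors were described as end-stage, but the labels mark WB1P-Myc replicates 12 and 13 as 8x8, a size that the study's methods count as advanced. Ages are not given in the labels. Cells negative for EpCAM, CD49f, CD31 and CD45 were sorted by En1 lineage and CD26 (Dpp4), giving 44 libraries from 13 mice: 12 from 3 control samples, 16 from 5 WB1P mice and 16 from 5 WB1P-Myc mice. Each control label carries a pair of numbers and was counted as 1 mouse, although the labels would also allow a pool. Fibroblasts of control tissue are called NFs and those of tumors CAFs. Counts were summed per mouse and CD26 class into 25 sums and are given as CPM, the counts of a gene scaled to the same total in every sum. WB1P replicate 4 has no CD26+ library, leaving 10 CD26- and 9 CD26+ CAF sums. Control sums hold libraries of both En1 classes. Only 1 library is held by the CD26- sums of WB1P replicate 4 and WB1P-Myc replicates 9 and 11. The same applies to the CD26+ sums of WB1P replicate 6 and WB1P-Myc replicates 10 and 11.

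The neurotrophins Bdnf and Ntf3 are secreted proteins that keep neurons alive and guide their axons. Each acts through a receptor tyrosine kinase, Ntrk2 for Bdnf and Ntrk3 for Ntf3, and through the shared receptor Ngfr (p75). Gdnf binds Gfra1, a receptor anchored to the membrane by a lipid, which signals through the kinase Ret or through Ncam1. Chl1 is a close homolog of the adhesion molecule L1, and Islr2 is a membrane protein with leucine-rich repeats that is known from growing axons.

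On GRCm38 the genes lie at chr2:109674700-109727007 (Bdnf, plus strand), chr6:126101412-126166910 (Ntf3, minus), chr15:7810846-7837575 (Gdnf, plus), chr13:58806569-59133970 (Ntrk2, plus), chr7:78175959-78738012 (Ntrk3, minus), chr11:95568818-95587735 (Ngfr, minus), chr19:58235604-58455909 (Gfra1, minus), chr6:103510586-103750211 (Chl1, plus) and chr9:58196297-58204319 (Islr2, minus). Islr2 shares 181 exon bases with its neighbour Islr on the same strand, so that reads from there could be counted for either gene. Counts per gene cannot separate the full-length and the truncated forms of Ntrk2 and Ntrk3.

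Of the 9 genes, 8 have windows around a transcription start in the RefSeq promoter table of GRCm38.p6. Chl1 and Islr2, which were the most different between groups, and Ntrk2, the most abundant receptor in NFs per length, are shown from 250 bases before to 50 after a start, on the strand of the gene, with each CG dinucleotide in capitals. The windows are chr6:103510626-103510925 for Chl1, 290 bases inside the Ensembl start, chr9:58204270-58204569 for Islr2 and chr13:58806319-58806618 for Ntrk2.
Chl1: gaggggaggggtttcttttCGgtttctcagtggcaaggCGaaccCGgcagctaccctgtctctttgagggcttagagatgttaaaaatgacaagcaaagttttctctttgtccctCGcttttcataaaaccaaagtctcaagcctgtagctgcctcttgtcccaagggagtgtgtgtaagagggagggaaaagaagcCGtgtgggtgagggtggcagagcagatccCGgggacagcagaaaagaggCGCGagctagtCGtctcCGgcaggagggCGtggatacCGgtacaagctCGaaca
Islr2: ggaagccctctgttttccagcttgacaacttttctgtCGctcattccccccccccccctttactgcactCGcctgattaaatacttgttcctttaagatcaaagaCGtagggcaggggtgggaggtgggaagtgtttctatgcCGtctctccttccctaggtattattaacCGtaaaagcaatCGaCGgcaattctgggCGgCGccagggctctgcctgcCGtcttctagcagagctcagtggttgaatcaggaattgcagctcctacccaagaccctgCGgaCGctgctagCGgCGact
Ntrk2: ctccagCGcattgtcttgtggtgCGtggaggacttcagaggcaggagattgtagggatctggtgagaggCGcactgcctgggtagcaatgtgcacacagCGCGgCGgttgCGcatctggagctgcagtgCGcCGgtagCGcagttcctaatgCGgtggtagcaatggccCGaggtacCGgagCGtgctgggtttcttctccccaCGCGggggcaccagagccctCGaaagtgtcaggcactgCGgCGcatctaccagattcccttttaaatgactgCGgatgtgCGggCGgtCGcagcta

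These windows hold 13, 14 and 23 CG dinucleotides, where the median over 32851 windows is 7. The GC content is 53.7% for Chl1, 54.0% for Islr2 and 61.3% for Ntrk2, beside a median of 52.7%. Searched on both strands, the GC box GGGCGG stands in the windows of Islr2, Ngfr, Ntf3 and Ntrk2 nearest to the Ensembl start, 4 of 8 genes, and in 35.7% of all windows. The letters TATAAA are found for Gdnf (13.6% of all windows) and CCAAT for Gfra1 (37.4%). The AP-1 letters TGAGTCA (5.20% of all windows) and the cAMP response element TGACGTCA (1.79%) are in none of the 8. A match of letters is a description of the window and not of binding.

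The sorted cells carried fibroblast transcripts and kept the sort by CD26. Dpp4 averaged 546 CPM in CD26+ and 5.28 in CD26- NFs, and 384 and 6.78 in CAFs. Libraries held 5790599 to 15240328 counts. The summed level of 8 pericyte markers was 1868 to 10762 CPM in CD26- CAFs, against 201 to 386 in CD26+ CAFs, 224 to 417 in CD26- NFs and 166 to 200 in CD26+ NFs. Rgs5 alone ranged from 565 to 4791 CPM in CD26- CAFs. The Schwann cell list summed to 113 to 492 CPM, most of it Scn7a, and neuronal markers to 6.03 to 58.4 CPM. Epithelial markers summed to 20.7 to 198 CPM in CD26- and 0.401 to 136 in CD26+ CAFs (NFs 24.6 to 65.2 and 13.5 to 33.9). For immune markers these ranges were 13.8 to 96.3 and 22.6 to 233 CPM (NFs 21.9 to 27.5 and 19.6 to 30.8). For endothelial markers they were 17.2 to 93.3 and 11.2 to 45.6 CPM (NFs 36.6 to 66.3 and 41.5 to 80.2). The part of such cells in the 9 genes was not tested. In these bulk sums a larger share of cells and more RNA per cell cannot be told apart.

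**Figure D1:**
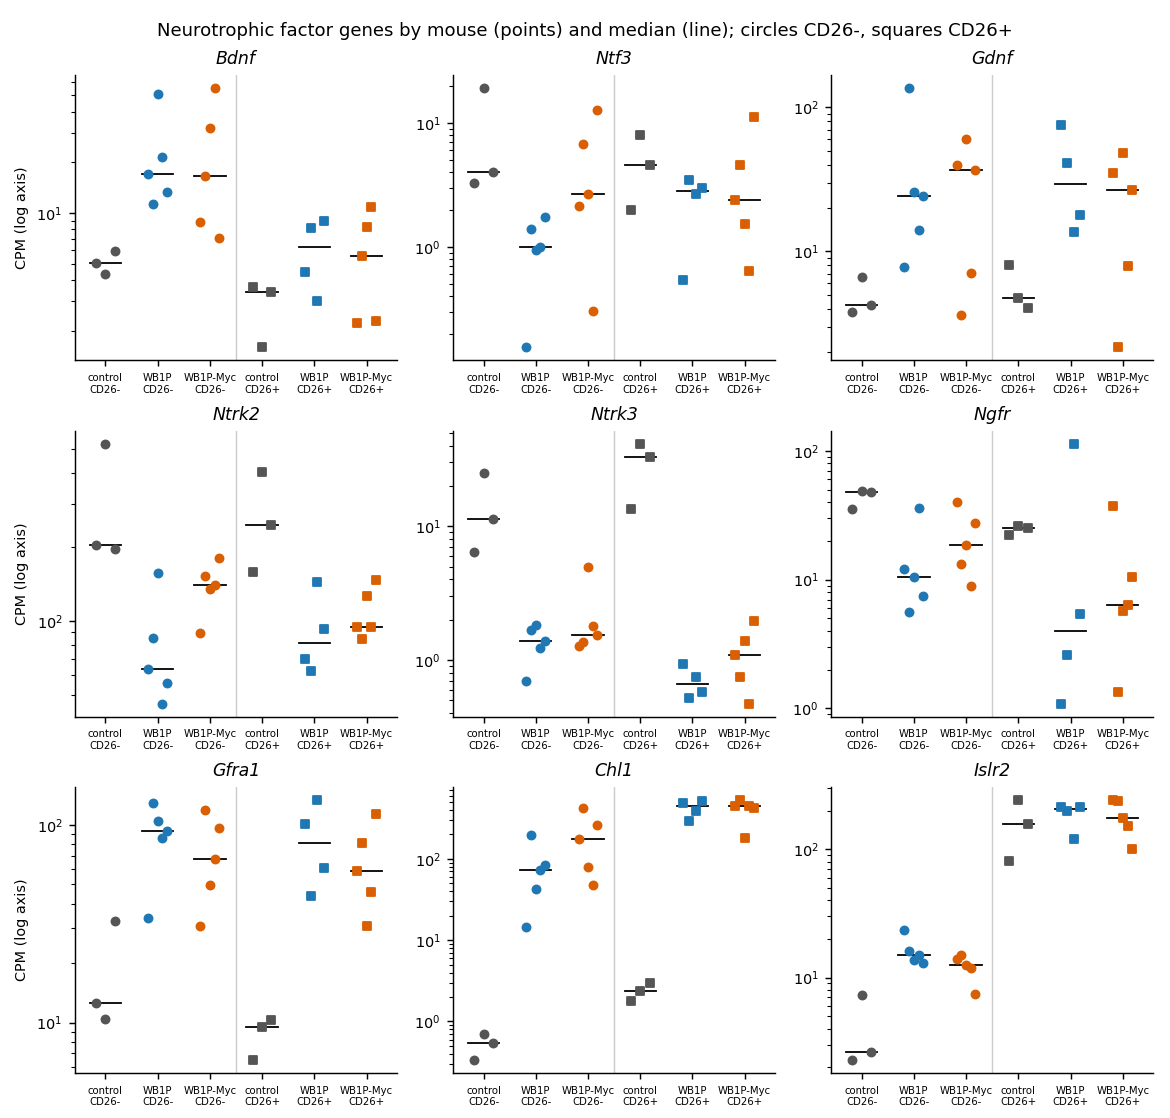
CPM of each gene (log axis) in CD26- (circles) and CD26+ (squares) fibroblasts of control, WB1P and WB1P-Myc mice. Each point is 1 mouse and lines are medians. Chl1 sits at 0.337 to 2.95 CPM in control and at 14.5 to 531 CPM in tumors, while Ntrk3 sits at 6.41 to 41.4 CPM in control and at 0.471 to 4.98 CPM in tumors.

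Among the ligands, Bdnf and Gdnf were higher in CAFs and Ntf3 was lower in most CD26- CAFs. Bdnf measured 5.06, 4.34 and 5.93 CPM in CD26- NFs. In CD26- CAFs it ran from 7.09 to 55.6 CPM with a median of 16.7 (mean 23.4 ± 17.3, SD, n = 10). All 10 CAF mice thus lay above the 3 control samples, by 2.27 ± 0.66 (SE) on the log2 scale. In the CD26+ class the ranges overlapped. NFs held 3.61, 1.59 and 3.39 CPM and CAFs 2.21 to 10.9, a log2 difference of 1.17 ± 0.63. Within CAFs, Bdnf was lower in the CD26+ than in the CD26- class of the same mouse in 9 of 9 mice (log2 difference -1.85 ± 0.42), and in NFs in 3 of 3. Pericyte markers were high in the same CD26- CAFs, and their part in the Bdnf level was not tested.

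Gdnf, the founding ligand of its family, differed widely between tumor mice. It measured 3.78, 6.64 and 4.24 CPM in CD26- NFs. WB1P replicates 4 to 8 held 7.82, 138, 25.7, 14.0 and 24.2 CPM, and WB1P-Myc replicates 9 to 13 held 39.8, 3.61, 59.9, 7.03 and 36.5 CPM. In 9 of 10 mice it exceeded every control sample, and WB1P-Myc replicate 10 lay below them all. Gdnf was high and low in the CD26+ fibroblasts of mostly the same mice. They held 76.1, 41.1, 13.7 and 17.9 CPM in WB1P replicates 5 to 8, and 35.2, 2.15, 48.4, 7.97 and 26.7 CPM in WB1P-Myc replicates 9 to 13, beside 7.98, 4.72 and 4.03 CPM in NFs. The log2 difference from NFs was 2.92 ± 1.03 in the CD26- and 2.59 ± 1.01 in the CD26+ class, and CD26 made little difference within CAFs (-0.04 ± 0.59).

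Ntf3 was the ligand with the lowest level per exon length in CD26- CAFs. CD26- NFs held 3.30, 19.3 and 3.99 CPM, with control replicate 2 far above the others. WB1P mice lay between 0.155 and 1.73 CPM, all below the control samples, whereas WB1P-Myc mice spread from 0.304 to 12.7 CPM and overlapped them. The log2 difference of -1.86 ± 0.72 rested on that control sample and was -0.58 without it. In CD26+ cells, NFs held 2.00, 7.98 and 4.54 CPM and CAFs 0.544 to 11.1 CPM, with overlap (-0.53 ± 0.78).

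The neurotrophin kinase receptors Ntrk2 and Ntrk3 were lower in CAFs. Ntrk2 measured 204, 526.4 and 196 CPM in CD26- NFs and 159, 403 and 246 CPM in CD26+ NFs. CAFs held 46.1 to 180.1 CPM (median 112) in the CD26- and 62.7 to 147 CPM (median 94.7) in the CD26+ class. No CAF mouse reached any control sample of its class. The log2 difference was -1.46 ± 0.33 and -1.28 ± 0.34, and without control replicate 2, the highest sample, it was -0.83 and -0.88. CD26 made little difference to Ntrk2, in CAFs (0.04 ± 0.25) or in NFs (-0.14 ± 0.44).

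Ntrk3 had the lowest CAF levels relative to NFs among the receptors. CD26- NFs held 6.41, 25.0003 and 11.4 CPM and CD26+ NFs of the same samples 13.4, 41.4 and 33.1 CPM. In CD26- CAFs it stood at 0.697, 1.67, 1.83, 1.22 and 1.38 CPM in WB1P replicates 4 to 8 and at 1.28, 1.37, 4.98, 1.79 and 1.53 CPM in WB1P-Myc replicates 9 to 13. In CD26+ CAFs it lay between 0.471 and 1.96 CPM, on 3 to 44 counts per sum. All CAF sums were below all NF sums of their class, by 2.98 ± 0.38 log2 units in CD26- and 4.85 ± 0.41 in CD26+ cells. WB1P-Myc replicate 11 gave the single high CD26- sum, which holds a GFP- library only. That sum also had the highest level of the Schwann cell factor Sox10 of all sums, 14.5 CPM. The part of either in the Ntrk3 level was not tested, and without that mouse the log2 difference was -3.21.

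CD26 and Ntrk3 were related in opposite ways in NFs and CAFs. Ntrk3 was higher in the CD26+ class in 3 of 3 control samples (log2 difference 1.09 ± 0.52) and lower in 4 of 4 WB1P and 4 of 5 WB1P-Myc mice (-0.77 ± 0.33 over both models). With the mouse as a block, under which samples of 1 mouse are compared with each other, these values were 1.17 and -0.81. In WB1P replicate 6 and WB1P-Myc replicates 9, 10 and 11 the sums compared held unequal En1 classes. Libraries of the same En1 class held 1.24 (CD26-) and 0.518 CPM (CD26+) in replicate 6, 1.28 and 0.883 in 9, and 0.731 and 0.742 in 10. Replicate 11 had none to compare. The part of the En1 classes in the CD26 difference was not tested.

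Ngfr, the p75 receptor that every neurotrophin binds, was even in NFs and scattered in CAFs. NFs held 35.6, 48.6 and 48.0 CPM in the CD26- and 22.0, 26.0 and 25.2 CPM in the CD26+ class. In CD26- CAFs, 8 of 10 mice lay below all control samples, and the range was 5.62 to 40.0 CPM. In CD26+ CAFs, 7 of 9 mice lay between 1.09 and 10.4 CPM, WB1P-Myc replicate 9 held 37.3 and WB1P replicate 7 held 114 CPM. The log2 difference from NFs was -1.28 ± 0.84 in CD26- and -0.19 ± 0.90 in CD26+ cells. Without WB1P replicate 7, the mouse with 114 CPM, they were -1.62 and -1.82. The Schwann cell factor Sox10 was at 12.5 CPM in the CD26+ sum of that mouse, the highest of the CD26+ sums. Its part in Ngfr was not tested.

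Gfra1, the receptor of Gdnf, was higher in CAFs of both classes. CD26+ NFs held 6.49, 9.53 and 10.3 CPM, and the 9 CD26+ CAF mice held 30.9 to 134 CPM (median 60.8), with no overlap and a log2 difference of 3.24 ± 0.55. CD26- NFs held 12.6, 10.4 and 32.6 CPM and CD26- CAFs 30.8 to 129.8 CPM (median 89.4), 9 of 10 above all control samples (2.21 ± 0.51). Gdnf and its receptor did not rank the mice alike, since WB1P-Myc replicate 10 was lowest for Gdnf and held 119 CPM of Gfra1 in CD26- cells.

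Of the 9 genes, Chl1 had the largest fold difference between CAFs and NFs. NFs held little of it, with 0.337, 0.711 and 0.549 CPM in CD26- cells, on 9 to 18 counts per sum, and 1.77, 2.38 and 2.95 CPM in CD26+ cells. CD26- CAFs held 14.5, 196, 42.6, 73.0 and 84.7 CPM in WB1P replicates 4 to 8 and 175, 426, 80.3, 47.5 and 259.9 CPM in WB1P-Myc replicates 9 to 13. CD26+ CAFs held 492, 292, 392 and 521 CPM in WB1P replicates 5 to 8 and 446, 531, 180.1, 451 and 426 CPM in WB1P-Myc replicates 9 to 13. The lowest CAF mouse was above the highest control sample in either class. Group means differed 263-fold in CD26- cells (log2 difference 7.98 ± 0.95) and 175-fold in CD26+ cells (7.60 ± 0.90). In 9 of 9 CAF mice and 3 of 3 control samples the CD26+ class held more Chl1 than the CD26- class, by 1.83 ± 0.39 and 2.21 ± 0.87 log2 units.

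Islr2 differed by CD26 in every mouse with both classes. CD26+ NFs held 81.0, 242 and 157 CPM and CD26- NFs 2.29, 7.31 and 2.63 CPM. CD26+ CAFs stayed within the NF range at 101 to 241 CPM (median 199), and CD26- CAFs held 7.38 to 23.4 CPM (median 13.9). The 10 CD26- CAF mice lay above all 3 control samples (log2 difference 1.86 ± 0.38, and 2.59 without control replicate 2), whereas CD26+ cells of tumor and control overlapped (0.36 ± 0.34). The CD26 difference was 3.86 ± 0.25 in CAFs and 5.35 ± 0.49 in NFs, in the same direction in 12 of 12 mice. Pericyte markers were high in CD26- CAFs, and their part in the Islr2 level there was not tested. Its neighbour Islr, with which it shares exon bases, was higher in CD26+ cells by 1.24 ± 0.14 in CAFs and 1.01 ± 0.26 in NFs.

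**Figure D2:**
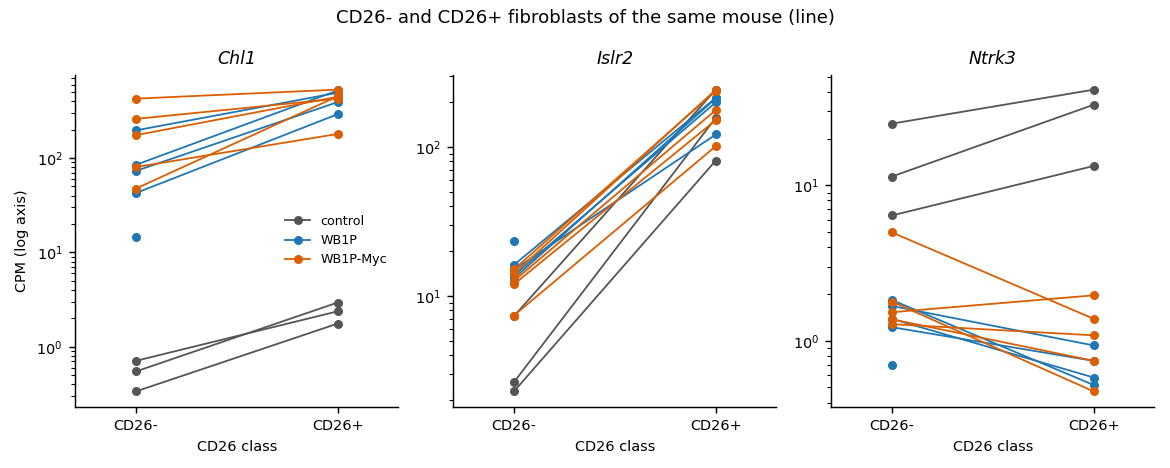
CPM (log axis) of Chl1, Islr2 and Ntrk3 in CD26- and CD26+ fibroblasts, with a line for each mouse colored by donor tissue (a lone point is WB1P replicate 4). Chl1 and Islr2 lines run upward in all 12 mice, and Ntrk3 lines run upward in the 3 control samples and downward in 8 of 9 tumor mice.

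**Figure D3:**
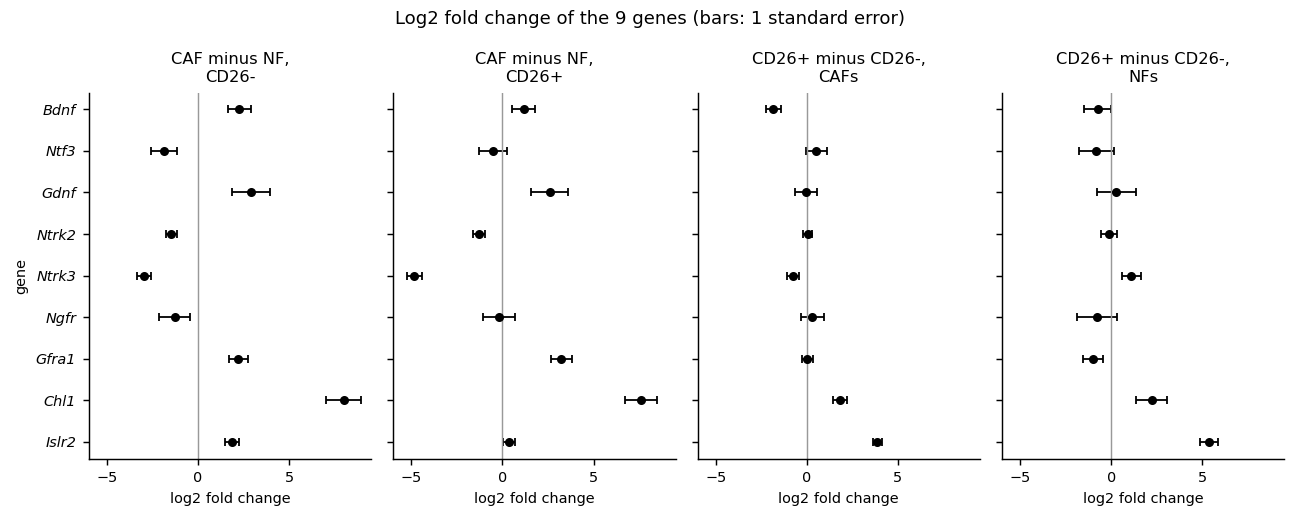
Log2 fold change of each gene (points) with 1 standard error (bars) in 4 comparisons. Chl1 is at 7.98 and 7.60 for CAF minus NF, and Islr2 at 3.86 and 5.35 for CD26+ minus CD26-.

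Against all 16601 genes tested these directions have a high background. In CD26- CAFs against NFs, edgeR's quasi-likelihood test called 20.4% of genes higher and 21.0% lower at an adjusted p under 0.05, and of the 9 genes Bdnf, Gdnf, Gfra1, Chl1 and Islr2 were called higher and Ntf3, Ntrk2 and Ntrk3 lower. In CD26+ CAFs against NFs it called 20.1% higher and 21.1% lower, among them Gdnf, Gfra1 and Chl1 higher and Ntrk2 and Ntrk3 lower. Between CD26 classes of CAFs it called 19.1% higher and 19.9% lower in CD26+ cells, with Chl1 and Islr2 higher and Bdnf lower. Between CD26 classes of NFs it called 2.67% higher and 1.49% lower, with Islr2 higher, and with the mouse as a block also Chl1 and Ntrk3. The block added Ntrk3, lower in CD26+ cells, in CAFs. Since the genes were chosen on these contrasts, the counts describe the choice and nothing is read from them. Both Gdnf calls were lost when any 1 of the 3 control samples was left out, and that in CD26+ cells also without any 1 of WB1P replicate 6 and WB1P-Myc replicates 9, 11 and 13. Both Ntrk2 calls were lost without control replicate 2. The Ntf3 call was lost without any 1 of control replicate 2, WB1P replicates 4, 6 and 7 and WB1P-Myc replicates 9 and 11. Ngfr gained a call in both classes without WB1P replicate 7, and in the CD26- class with only the groups compared, and Ntrk3 one between the CD26 classes of CAFs without WB1P-Myc replicate 13.

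Divided by exon length, the order of the genes turned over between NFs and CAFs. Among CD26- NFs, Ntrk2 stood first with 16.0 ± 9.77 CPM per kb (SD, n = 3), followed by Ngfr (12.8 ± 2.14), and Chl1 was last at 0.0433 ± 0.0152. Among CD26- CAFs, Gfra1 (14.8 ± 6.28), Chl1 (11.4 ± 10.3) and Gdnf (9.70 ± 10.9) led with overlapping ranges (n = 10). In CD26+ CAFs, Chl1 (33.7 ± 9.27) and Islr2 (31.0 ± 8.45) led and overlapped each other (n = 9). In CD26+ NFs Islr2 led with 27.0 ± 13.6 and Chl1 was again last at 0.192 ± 0.0482, below the lowest Bdnf sample. Ntrk3 was last in CAFs of both classes, with 0.0588 ± 0.0389 and 0.0310 ± 0.0160 CPM per kb. It did not overlap the next gene, Bdnf, in CD26+ CAFs. In CD26- CAFs its highest sum (0.165) lay above the lowest of the next gene, Ntf3 (0.0903).

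**Figure D4:**
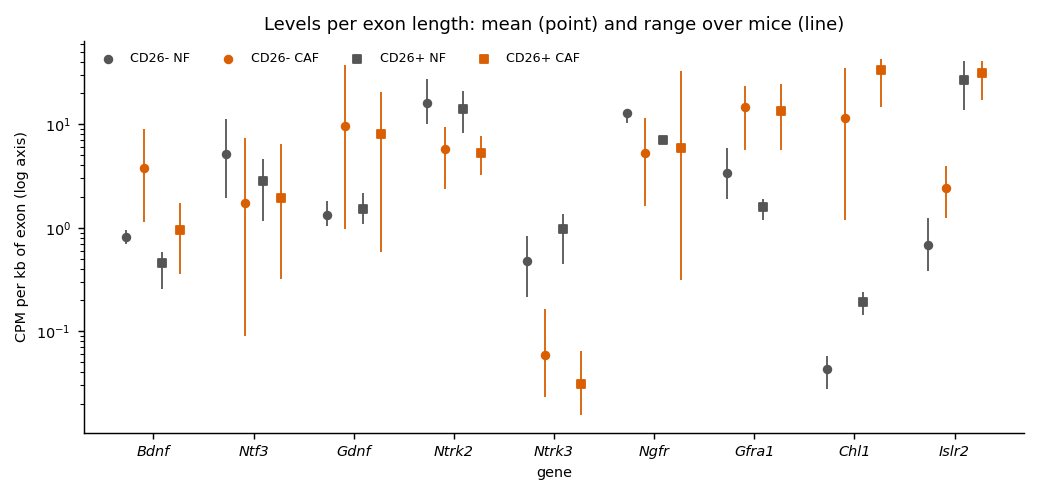
Mean (points) and range over mice (lines) of CPM per kb of exon (log axis) for each gene in CD26- and CD26+ NFs and CAFs. Chl1 moves from last in NFs, at 0.0433 and 0.192 CPM per kb, to 11.4 and 33.7 CPM per kb in CAFs.

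The 63 related genes, of which 46 passed the filter on low counts, moved in both directions. In CD26- CAFs against NFs, 9 rose, 11 fell and 26 did not pass the test, with a median log2 difference of 0.04 beside 0.01 over all genes tested. In CD26+ CAFs, 13 rose and 7 fell (median 0.29 beside -0.00). Over all genes the shares were the 20.4% higher and 21.0% lower, and the 20.1% higher and 21.1% lower, given above, so that the number of calls among the related genes was near the background. Adjusted p-values here are those of edgeR's quasi-likelihood test over all genes. By family, 1 of 11 measured genes of the neurotrophin axis rose and 2 fell in CD26- CAFs, and 3 rose and 2 fell in CD26+ CAFs. For the GDNF family these counts were 1 and 2 of 7, and 2 and 0. For L1 and contactin adhesion they were 2 and 2 of 6 in either class, for the leucine-rich repeat genes 2 and 3, and 1 and 2 of 10, and for other neurotrophic factors 3 and 2, and 5 and 1 of 12.

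Of the neurotrophin axis, Sorcs2, a sorting receptor that works beside Ngfr, rose from 6.35 ± 1.03 to 139 ± 54.4 CPM in CD26- cells (log2 difference 4.47 ± 0.40, adjusted p = 2.84e-08) and from 3.63 ± 2.14 to 90.2 ± 20.2 CPM in CD26+ cells (4.74 ± 0.41, adjusted p = 7.42e-08). Sort1, which binds the precursor forms of neurotrophins, fell in CD26+ CAFs (-2.06 ± 0.37, adjusted p = 0.000211) and was at -0.26 ± 0.38 in CD26- CAFs (adjusted p = 0.609), and the test of that difference gave an adjusted p of 0.106.

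On the GDNF side, Ncam1, which can carry the Gdnf signal in place of Ret, rose in both classes, from 13.1 ± 3.54 to 203 ± 77.2 CPM (3.94 ± 0.29, adjusted p = 2.39e-09) and from 10.4 ± 2.499 to 79.9 ± 19.5 CPM (3.05 ± 0.27, adjusted p = 1.02e-07). The kinase Ret rose in CD26+ CAFs from 8.76 ± 5.28 to 51.0 ± 29.3 CPM (2.65 ± 0.54, adjusted p = 0.000688). In CD26- CAFs it held 11.1 ± 5.35 CPM beside 7.17 ± 1.55 in NFs (0.67 ± 0.48, adjusted p = 0.272). The difference between these changes gave an adjusted p of 0.137. Gfra2, the receptor of the related ligand neurturin, fell in CD26- CAFs (-2.18 ± 0.42, adjusted p = 0.000281) and was at 0.38 ± 0.48 in CD26+ CAFs (adjusted p = 0.542). Here the difference of 2.57 ± 0.67 passed the test (adjusted p = 0.0459), but it was lost without any 1 of 10 mice, that is, all except WB1P replicate 6, WB1P-Myc replicate 13 and control replicate 1.

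Among relatives of Chl1, Nfasc rose from 6.33 ± 6.87 to 44.8 ± 22.2 CPM in CD26- cells (2.90 ± 0.65, adjusted p = 0.00128) and from 2.196 ± 1.34 to 69.2 ± 24.3 CPM in CD26+ cells (5.13 ± 0.76, adjusted p = 3.29e-05). Nrcam rose in CD26+ CAFs (1.69 ± 0.61, adjusted p = 0.0312) and was at 0.71 ± 0.59 in CD26- CAFs (adjusted p = 0.340). L1cam, the founding member, stayed under 3 CPM on average in 3 of the 4 groups and passed no test, with log2 differences of 1.07 ± 0.72 and 0.55 ± 0.72. Among the contactins, partners of the L1 family, Cntn1 and Cntn3 fell, whereas Cntn2 rose in CD26- CAFs (1.88 ± 0.71, adjusted p = 0.0372) and was at 0.75 ± 0.60 in CD26+ CAFs (adjusted p = 0.331). Cntn1 fell from 246 ± 97.3 to 13.3 ± 10.6 CPM (-4.17 ± 0.70, adjusted p = 7.62e-05) and from 163 ± 120.3 to 5.91 ± 5.66 CPM (-4.64 ± 0.75, adjusted p = 7.49e-05). Cntn3 fell by 5.63 ± 0.64 and by 6.38 ± 0.98.

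Of the remaining families, Rtn4rl2 and Lif had the largest increases in both classes. Rtn4rl2, a relative of the Nogo receptor, rose by 4.31 ± 0.49 and 4.33 ± 0.51 log2 units from under 1 CPM. Lif, a cytokine that supports neurons and acts on many other cells, rose from 27.3 ± 8.38 to 238 ± 134.6 CPM and from 38.9 ± 7.30 to 309.7 ± 156.5 CPM (3.16 ± 0.55 and 3.14 ± 0.55). Falling genes were the Nogo receptor Rtn4r (-2.40 ± 0.40 and -1.44 ± 0.44), Slitrk1 in CD26- CAFs (-4.65 ± 0.75) and the heparin-binding factor Mdk in CD26+ CAFs (-1.38 ± 0.34). In CD26+ CAFs the Rtn4r call was lost without control replicate 3 (-1.08) and the Mdk call without control replicate 1 (-1.001). Islr did not pass the test in either class (0.18 ± 0.21 and 0.40 ± 0.21).

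**Figure D5:**
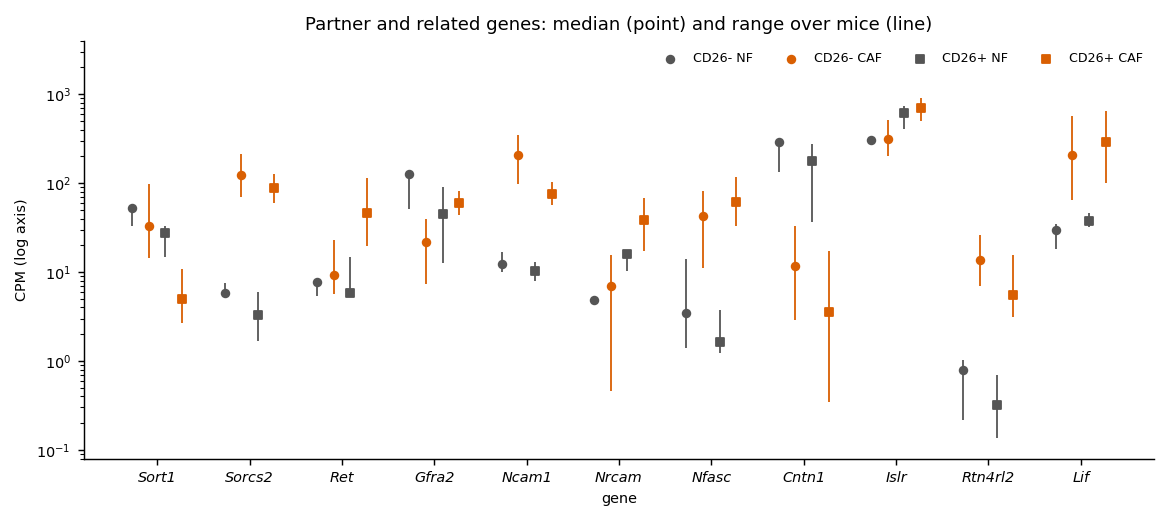
Median (points) and range over mice (lines) of CPM (log axis) for 11 related genes in CD26- (circles) and CD26+ (squares) NFs and CAFs. By their medians, Sorcs2, Ncam1, Nfasc, Rtn4rl2 and Lif are higher in CAFs of both classes and Cntn1 is lower.

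Between the CD26 classes of CAFs, 10 of the 46 related genes were higher in CD26+ cells, 17 were lower and 19 did not pass the test (median log2 difference -0.50 beside 0.01 over all genes). Over all genes 19.1% were higher and 19.9% lower. Higher in CD26+ CAFs were Cntn2 (2.91 ± 0.43), Nrcam (2.66 ± 0.40, adjusted p = 1.58e-05), Ret (2.36 ± 0.33, adjusted p = 5.35e-06) and Gfra2 (1.58 ± 0.33). Lower were Cntn3 (-3.58 ± 1.02), Sort1 (-2.63 ± 0.30, adjusted p = 3.66e-07), Slitrk6 (-1.97 ± 0.57), Mdk (-1.44 ± 0.26), Cntfr (-1.31 ± 0.24) and Ncam1 (-1.14 ± 0.16, adjusted p = 4.59e-06). The Cntn3 call was lost without the mice marked 8x8 (-2.73). Pericyte markers were also high in the CD26- class, and their part was not tested. In NFs, Cntn2 (4.04 ± 0.83), Islr and Metrnl (0.84 ± 0.21) were higher in CD26+ cells and Rtn4r (-2.001 ± 0.56) and Cntfr (-1.87 ± 0.43) lower, 5 of 46. Over all genes 2.67% were higher and 1.49% lower in CD26+ NFs. When 1 control sample was left out, the Rtn4r and Metrnl calls were lost whichever it was, those of Islr and Cntfr without replicate 2 or 3, and that of Cntn2 without replicate 3. With the mouse as a block there were 14 calls of related genes in NFs, and calls over all genes rose as well, as given below.

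Between the 2 tumor models, WB1P-Myc against WB1P, 0.512% of all genes were called in CD26- CAFs and 0% in CD26+ CAFs, and none of the 9 genes was among them. These values were also part of the choice of the 9 genes and are given as a description. Ntf3 was 2.06 ± 0.81 log2 units higher in WB1P-Myc in CD26- cells, in overlapping ranges. Chl1 differed by 1.08 ± 0.54 in CD26- and -0.17 ± 0.56 in CD26+ cells. Of the related genes none was called in CD26+ CAFs by edgeR or DESeq2 (3 at an unadjusted p under 0.05), and Ncam1 was lower in CD26- CAFs of WB1P-Myc (-1.05 ± 0.21, adjusted p = 0.0313), a call that was lost without any 1 of 7 mice: WB1P replicates 5, 6, 7 and 8 and WB1P-Myc replicates 9, 11 and 13.

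The difference between the steps from NF to CAF in the 2 CD26 classes was called for 2.11% of all genes and for none of the 9, and again describes values that chose them. It was -1.87 ± 0.62 for Ntrk3, lower by more in the CD26+ class, and -1.49 ± 0.48 for Islr2, higher by more in the CD26- class. With the mouse as a block the number of related genes called was 8 in place of 1, and calls over all genes rose as well, as given below.

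The En1 lineage, which was not used to choose the genes, made no difference to them that was detected without pairing by mouse. Deviations of the En1 classes of a mouse correlated at 0.491 to 0.842 over 19 pairs, so that an unpaired test can miss small differences. Comparing GFP+ with GFP- libraries within a CD26 class, edgeR called 0% of 15584 genes in CD26- CAFs, 0.0193% in CD26+ CAFs, 0.00642% in CD26- NFs and 0.00642% in CD26+ NFs. None of the 9 genes or of the related genes was among them, and DESeq2 called none of the 9 and 1 related gene, in CD26- NFs. At an unadjusted p under 0.05 there were 1, 1, 0 and 0 of the 9, and 2, 1, 1 and 1 related genes. In both CAF classes that gene was Ntrk3, with log2 differences of -0.85 ± 0.37 and -1.06 ± 0.44 (adjusted p = 1.00 and 1.00), lower in the En1 lineage in 6 of 7 and 5 of 6 mice with both libraries. For Chl1 the difference was -0.22 ± 0.41 and -0.32 ± 0.43, and for Islr2 0.16 ± 0.28 and 0.19 ± 0.28 in CAFs. En1 itself was higher in the lineage by 0.79 ± 0.29 in CD26- CAFs, and did not pass the test over all genes (adjusted p = 0.901).

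Other genes whose log2 CPM followed the 9 over the 25 sums are given as a description, since the sums share mice and fall into the groups above. Islr2 was nearest to Duoxa1 (Pearson r = 0.983), Duox1 (0.978) and Adgrg2 (0.969). Chl1 was nearest to Emb (0.968), Tnfsf8 (0.956) and Steap1 (0.946). The other top 3 sets were Ccl17, Megf11 and Col10a1 for Bdnf (0.906 to 0.890), AW112010, Bmp4 and Sntg2 for Ntf3 (0.873 to 0.859), Gm16685, Stip1 and Fxr1 for Gdnf (0.910 to 0.879), Asic4, Cyp2j9 and Gpr62 for Ntrk2 (0.847 to 0.834), Klhl15, Gprasp1 and Atp8a1 for Ntrk3 (0.915 to 0.900), Sncaip, Bcl9 and Hcn3 for Ngfr (0.750 to 0.716), and Kcnj15, Reg1 and Matn3 for Gfra1 (0.901 to 0.895). Within the 9, Gfra1 and Chl1 were most alike (r = 0.808), then Ntrk2 and Ntrk3 (0.783), and Ntrk3 and Chl1 were most opposed (-0.835).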

How the data were processed

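RNA from sorted fibroblasts was made into stranded mRNA libraries and sequenced in pairs. The authors deposited raw read counts per gene, made per the submitters' processing notes with HISAT2 2.2.1 on GRCm38. The counter, its annotation and its strand setting are not given in the sources used here, so that antisense overlaps may be shared. Of 55487 lines, 1 names no gene and holds 0 counts. Gene positions and exon lengths are from GENCODE M21 of the same build, where 55140 of 55486 identifiers were found.

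The 9 genes and the lists were chosen with earlier results of these data known. All 9 passed the filter on low counts. Named related genes are up to 5 per direction and comparison with the largest change among those called and at 5 CPM or more in the highest group, plus Sort1, Ret, Ncam1, L1cam, Nrcam and Islr, and any gene behind a count of 5 or fewer. Some genes that this rule names, and part of the control genotype, are not reported here.

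Counts were summed per mouse and CD26 class and analysed in R 4.3.3 with edgeR 4.0.16 (filterByExpr, TMM, glmQLFit, glmQLFTest) over all groups. En1 contrasts used the 44 single libraries. A call is a Benjamini-Hochberg adjusted p under 0.05, and a standard error is the fold change over the root of F. DESeq2 1.42.0 (Wald test and size factors), no filter, a mouse block, single libraries, only the groups compared, a fold threshold and leaving out mice were alternatives. The scripts were tested on simulated data. Likeness used log2 CPM with a prior count of 2. Python 3.11.15 did the rest.

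Replicate numbers pair samples of the same label, each counted as 1 mouse, although a control label may stand for a pool. Deviations of the 2 CD26 classes correlated at 0.237 to 0.668 over 12 pairs. Depth was 5790599 to 15240328 counts per library (median 12818093), where 3 counts in a sum are 0.102 to 0.518 CPM. Sequencing batches are not given in the sources used here.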

Additional observations from a re-analysis of the deposited data

Results flagged for a closer look

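In all, 7 of 36 groups of 4 or 5 mice held a value far from the rest. About 1.8 would be flagged by chance if the values were normally distributed and the groups independent. CPM values are skewed and the groups share mice, so no excess over chance is read from this count. They were Ngfr at 114 CPM in CD26+ and 36.0 CPM in CD26- fibroblasts of WB1P replicate 7, where the next mice held 5.40 and 12.1, and Ngfr at 37.3 CPM in CD26+ fibroblasts of WB1P-Myc replicate 9, above 10.4 in the next. Gdnf was at 138 CPM in CD26- fibroblasts of WB1P replicate 5, above 25.7. Bdnf was at 51.0 CPM in CD26- fibroblasts of WB1P replicate 6, above 21.5. Ntrk3 was at 4.98 CPM in CD26- fibroblasts of WB1P-Myc replicate 11, above 1.79, and Islr2 was low at 121 CPM in CD26+ fibroblasts of WB1P replicate 7, below 199. Ngfr in WB1P replicate 7 stood apart in both CD26 classes.

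Ntrk3 differed by CD26 in opposite directions in control and WB1P. The mean log2 ratio of CD26+ over CD26- cells was 1.11 in 3 control samples, all positive, and -1.16 in 4 WB1P mice, all negative. This difference between control and WB1P alone was not tested, and that over both tumor models was used to choose the gene. The CD26+ sum of WB1P replicate 6 holds only a GFP+ library, whereas its CD26- sum holds both En1 classes.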

How the results depend on the processing

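Directions of the called fold changes of the 9 genes and of the named related genes held under all alternatives run. With absolute log2 fold changes over 2 required, calls among the 9 genes were 5 in CD26- CAFs against NFs and 1 between the CD26 classes of CAFs, and among related genes 12, 10, 6, 2 and 0 in CD26- CAFs, CD26+ CAFs, CD26 in CAFs, CD26 in NFs and WB1P-Myc against WB1P (CD26-). By DESeq2's Wald test, calls were 2 of the 9 for CD26 in NFs, and 5, 3 and 1 related genes for WB1P-Myc (CD26-), the difference of changes and the En1 lineage in CD26- NFs. With the replicate block, the pairing by mouse gave 3 and 2 of the 9 and 14 and 8 related genes for CD26 in NFs and the difference of changes, where calls over all genes went from 692 to 1916 and from 351 to 1010. It moved no other count of these genes by over 1.5 times. With single libraries as units, calls were 3, 1 and 2 of the 9 and 15, 6 and 6 related genes for CD26 in NFs, WB1P-Myc (CD26-) and the difference of changes. Related genes called were 1 for CD26 in NFs with only the groups compared, and 0 for the difference of changes without the mice marked 8x8. Leaving out single mice gave 5 to 8 and 3 to 6 of the 9 genes in CD26- and CD26+ CAFs, the lowest in both without control replicate 2, and 0 to 3, 0 to 1 and 0 to 1 related genes for CD26 in NFs, WB1P-Myc (CD26-) and the difference of changes. Calls over all genes are given here only for the mouse block, so nothing about the 9 or the related genes is read from the counts under the other settings. With 3 control samples, and counts of 3 to 62 for Ntrk3 in CAF sums, depth and sample number limit the precision of these levels.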

Other observations

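Across the 9 tumor mice with both CD26 classes, Gdnf levels of CD26- and CD26+ fibroblasts on the log2 scale had a Pearson r of 0.955 and a Spearman rho of 0.950, and r was 0.921 without the 2 mice farthest from the median. This is a description with no test, since the comparison was chosen after the values were seen and the same values chose the genes. The classes of a mouse were sorted from 1 tissue. Ngfr followed with r = 0.811 and rho = 0.783, and r fell to 0.568 without the 2 farthest mice. For the other 7 genes r ranged from -0.144 (Ntrk2) to 0.757 (Bdnf). Within a tumor model there are 4 or 5 such mice, too few for a value of their own.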
